A study of Mus musculus with 8 samples.

Results

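The genes described here are 51 genes of DNA replication and dNTP supply, taken by name from the 34478 gene symbols of the deposited table, and all 51 were found. They were grouped by role as 15 genes of origin licensing, 8 of helicase activation, 9 of the replicative polymerases, 12 of the sliding clamp, its loading and the lagging strand, 5 of dNTP supply and 2 of chromatin assembly. The libraries hold mRNA of 4 primary murine lines of pancreatic ductal adenocarcinoma (PDAC), numbered #1, #3, #5 and #10, which had received trametinib, an inhibitor of the kinase MEK, for 48 h, or DMSO alone as the control. There is 1 library for each line and treatment, and the trametinib libraries are called MEKi, as in the sample labels. Trametinib was given at the IC50 of each line, with concentrations that the labels do not state, so line and dose cannot be told apart. All lines, controls included, came from tumors of mice that carried Ptf1a wt/Cre together with Trp53 loxP/loxP. Cre from the Ptf1a locus, a gene of the pancreatic lineage, removes floxed parts of Trp53. Every MEKi library therefore shares the alleles of its control. The labels do not say whether the libraries of a line came from separate cultures. With 1 library for each line and treatment, the spread in the tests is that of the change between lines.

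Cells license each replication origin before S phase. The origin recognition complex (ORC), with Cdc6 and Cdt1, loads the ring of Mcm2 to Mcm7, which is later switched on as the replicative helicase by the kinase Cdc7 with Dbf4 and by Cdc45 and the GINS complex. Polymerase alpha with primase starts each strand, polymerases epsilon and delta extend it on the clamp Pcna, and dNTPs come from ribonucleotide reductase and from thymidylate synthesis and salvage. Many of these genes are transcribed at the start of S phase under E2F factors, downstream of the RB pathway that growth signals through MEK and ERK feed into.

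Promoters are shown because these genes were lower together with MEKi. Promoter sequences of 250 bases before to 50 bases after the start, from RefSeq on GRCm38.p6, were at hand for 43 of the 51 genes. No entry was at hand for Pole, Gins4, Mcm4, Prim2, Rfc2, Gins1, Gmnn and Gins2. The 43 promoters were searched on both strands for the E2F-type words TTTCCCGC, TTTGGCGC, TTTGCCGC and TTTCGCGC, of which TTTCGCGC and the reverse complement of TTTGGCGC can overlap. A match was found in 15 of 43 promoters (34.9%), against 2.60% of the 27025 genes with a promoter, 4.42% of those tested and 6.68% of the 2995 other genes called lower. The median log2 fold change was -1.38 for the 15 genes with a match and -1.20 for the 28 without one. CCAAT stood in 58.1% of the 43 promoters and in 43.1% of promoters of tested genes. TTTGAA or TTCGAA, letters of the cell-cycle homology region, stood in 20.9% and 16.8%. These shares describe letters in a window and were not tested, and a missing match says nothing of a factor.
Below are 170 bases before to 20 after the RefSeq start for 4 genes, on the strand of the gene, with E2F-type matches in capitals. All 4 were chosen among the genes that hold a match. Cdc6, Mcm5 and Pola1 were lower with MEKi, and Orc3 is shown because it did not pass the test. Of the genes without a match, Tk1 (-2.16), Dut (-1.95) and Pold2 (-1.86) had the largest falls.
Cdc6, chr11:98907981-98908170, plus strand: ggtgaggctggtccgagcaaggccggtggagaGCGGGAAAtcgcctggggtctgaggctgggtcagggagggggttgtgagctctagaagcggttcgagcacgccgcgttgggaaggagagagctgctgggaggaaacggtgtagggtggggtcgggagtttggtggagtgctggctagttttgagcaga
Mcm5, chr8:75109339-75109528, plus strand: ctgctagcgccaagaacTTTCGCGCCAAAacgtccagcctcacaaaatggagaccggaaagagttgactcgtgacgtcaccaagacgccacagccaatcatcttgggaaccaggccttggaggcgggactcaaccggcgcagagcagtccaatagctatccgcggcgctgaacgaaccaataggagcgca
Pola1, chrX:93632136-93632325, minus strand: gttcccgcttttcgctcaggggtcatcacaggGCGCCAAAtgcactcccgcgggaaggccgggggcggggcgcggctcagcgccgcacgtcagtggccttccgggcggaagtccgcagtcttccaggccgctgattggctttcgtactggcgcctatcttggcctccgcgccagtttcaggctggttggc
Orc3, chr4:34614923-34615112, minus strand: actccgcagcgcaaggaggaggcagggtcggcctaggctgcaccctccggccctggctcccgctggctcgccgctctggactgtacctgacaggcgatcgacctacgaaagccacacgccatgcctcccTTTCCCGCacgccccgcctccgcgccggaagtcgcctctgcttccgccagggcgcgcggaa
The match began 138 bases before the start in Cdc6 and in Pola1 and 41 bases before it in Orc3, whereas Mcm5 holds an overlapping pair. The window of Cdc6 lies inside the span GENCODE gives the gene, which opens further upstream.

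**Figure D1:**
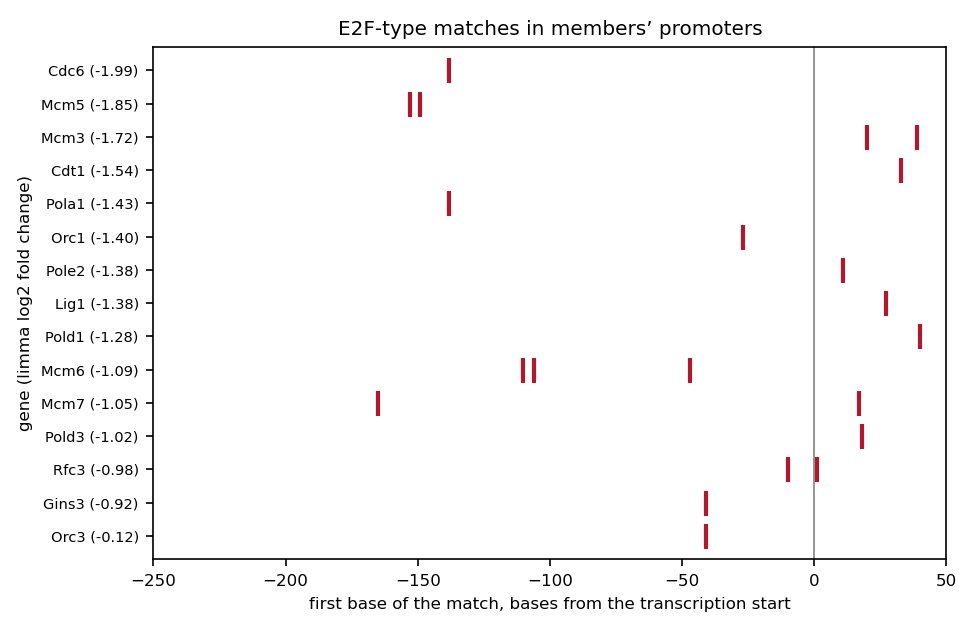
Positions of E2F-type matches in the promoters of the 15 genes that have one. The x axis gives the first base of each match in bases from the transcription start (RefSeq), each row is a gene with its limma log2 fold change, MEKi against DMSO, and genes are ordered by that value. Matches lie on both sides of the start, and Orc3, the lowest row at -0.12, has a match at the same distance as Gins3.

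Facts of the whole series bear on all values below. Library totals were 30680091 to 36385719 normalized counts, or about 29300000 to 45900000 reads as estimated from the step between low values. The lowest value of any of the 51 genes was 167.5 (Gins1, MEKi line #3), far above the 2.33 to 3.72 normalized counts that 3 reads were worth, so depth did not limit these genes. The MEK target Dusp6 was lower in MEKi (log2 fold change -2.51, adjusted p = 0.000123, limma). Trp53 stood at 275 to 355 normalized counts in DMSO and 196 to 278 in MEKi, which does not check the deletion, since a count over the gene does not tell removed exons from the others. Of 8 epithelial markers, Cdh1 was at 19630.0 or above in every library, while Epcam was listed at 0 in every library except those of line #3. The keratins Krt8, Krt18 and Krt19 were lower with MEKi, with log2 fold changes of -0.74, -0.82 and -0.66 (adjusted p = 0.0284, 0.00543 and 0.0287, limma). Summed epithelial markers ranged from 221230.0 to 348820.0 in DMSO and 113160.0 to 222090.0 in MEKi. Summed fibroblast markers (8 genes, 1 at 0 throughout) ranged from 94.9 to 366 and from 440 to 1258, endothelial markers (5 genes) from 39.5 to 83.0 and from 63.0 to 979, immune markers (5 of 6 in the table) from 154 to 224 and from 159 to 266, and acinar markers (5 genes, 1 at 0) from 31.0 to 249 and from 19.5 to 126. The part of these shifts in the results was not tested. Exons of 19 of the 51 genes overlap those of another gene, among them Tk1 (with Afmid) and Chaf1a (with Ubxn6), and the sources used here do not state whether counting used strand.

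With MEKi, 49 of the 51 genes (96.1%) passed the limma test as lower, with an adjusted p under 0.05, where 25.6% of the 15888 genes tested were lower. None was called higher, where 27.3% of genes tested were, and none was higher at an unadjusted p under 0.05, since all 51 fitted values lay below 0. All 51 genes passed the filter on low values. Genes were tested on log2(normalized count + 1) with a block for each cell line, and adjusted over all genes tested. Their median log2 fold change was -1.28, from -2.16 for Tk1 to -0.12 for Orc3, where the median of all genes tested was 0.07. In 50 of the genes the change was below 0 in all 4 lines. All MEKi libraries lay below all DMSO libraries for 49 genes, as they did for 16.2% of genes tested. A fitted log2 fold change of -1 or lower was found for 37 genes, against 9.31% of genes tested. Adjusted p-values of the 49 genes ran from 0.000311 to 0.0100. The summed normalized counts of the 51 genes took 0.566%, 0.580%, 0.582% and 0.643% of the library total in DMSO lines #1, #3, #5 and #10, and 0.279%, 0.179%, 0.328% and 0.316% in MEKi. In RNA from whole cultures, fewer cells in S phase and less RNA of these genes per cell cannot be told apart.

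**Figure D2:**
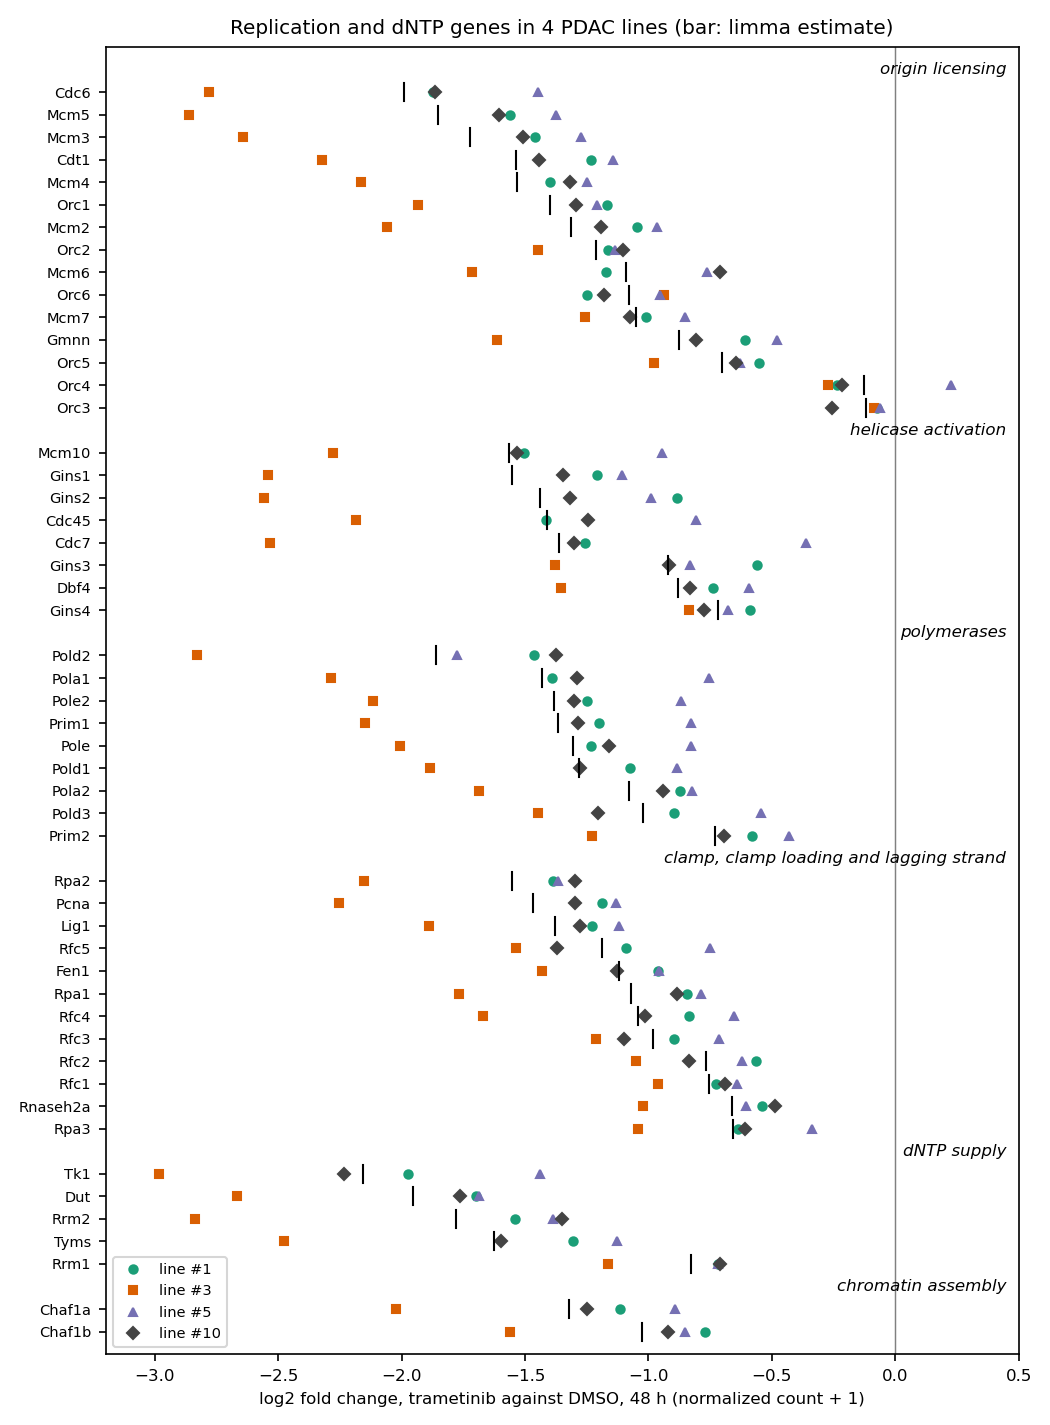
Log2 fold change of each of the 51 genes, MEKi against DMSO, in each line (x axis, log2 of normalized count + 1), with the limma estimate as a vertical bar and the genes grouped by role. Line #3 lies farthest to the left for 49 genes, and only Orc4 in line #5 lies to the right of 0, at 0.23.

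Of the 15 genes of origin licensing, 13 were lower with MEKi, among them Cdc6, Cdt1 and the 6 subunits of the helicase ring, and 2 subunits of ORC did not pass the test. The median log2 fold change was -1.21. Values of single libraries are given here in the order of lines #1, #3, #5 and #10, and positions are those of GENCODE on GRCm38. Cdc6 (chr11:98907801-98923940), the ATPase that joins ORC at the origin, stood at 2259, 2640.1, 2622 and 3002 normalized counts in DMSO. With MEKi it stood at 616, 384, 962 and 824. The groups were far apart and line #3 was lowest, and the log2 fold change was -1.99 (SE 0.21, adjusted p = 0.000606, limma), which left 25.2% of the DMSO level. Mcm5 (chr8:75109569-75128439), a subunit of the helicase ring, stood at 7837, 7749.8, 6955 and 8248 in DMSO and at 2655, 1065, 2680.2 and 2708 in MEKi, with 3 MEKi libraries close to each other and line #3 below them. Its log2 fold change was -1.85 (SE 0.24, adjusted p = 0.00120, limma). Orc3 (chr4:34570796-34614944), an ORC core subunit, had the smallest change, with 1100.1, 1248, 1239 and 1183 normalized counts in DMSO and 1046, 1177, 1186 and 992 in MEKi. These groups overlapped, and the log2 fold change of -0.12 did not pass the test (95% interval -0.33 to 0.096, adjusted p = 0.301, limma) and was 0.0084 with libraries rescaled to equal totals.

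The 6 ORC subunits differed among themselves. Orc1, the subunit whose level varies through the cell cycle, fell, with a log2 fold change of -1.40, and so did Orc2 (-1.21), Orc6 (-1.08) and Orc5 (-0.70). Orc4 did not pass the test, at -0.13 (95% interval -0.39 to 0.14, adjusted p = 0.368, limma), and was at 0.0022 with equal totals. It was the one gene of the 51 with a line above 0, as its normalized counts were 2159.6, 2551, 1683 and 3034 in DMSO and 1833, 2109.8, 1968 and 2612 in MEKi, higher only in line #5. The difference between the log2 fold changes of Orc2 and Orc3 was -1.09, -1.36, -1.07 and -0.85 in lines #1, #3, #5 and #10, below 0 in each line. Orc1 minus Orc3 was likewise below 0 in each line, at -1.28 ± 0.38 (SD, n = 4 lines). Of the ORC genes, Orc1, Orc2, Orc4, Orc5 and Orc6 are among those whose exons overlap another gene.

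Cdt1, which brings the helicase ring to ORC, had a log2 fold change of -1.54, and Gmnn, whose protein geminin holds Cdt1 back after origins have fired, one of -0.88. Cdt1 fell further than Gmnn in every line, with differences of -0.63, -0.71, -0.67 and -0.64 in lines #1, #3, #5 and #10. The SD of this difference over the lines was 0.038, against 0.54 for the log2 fold change of Cdt1 and 0.51 for that of Gmnn. It was the smallest SD of the pairs looked at, the others running from 0.21 to 0.90. Both genes fell most in line #3, which a difference removes. Mcm2 followed a like pattern, at -1.05, -2.06, -0.96 and -1.19 in lines #1, #3, #5 and #10. Whether the small SD is particular to Cdt1 and Gmnn was not tested.

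**Figure D3:**
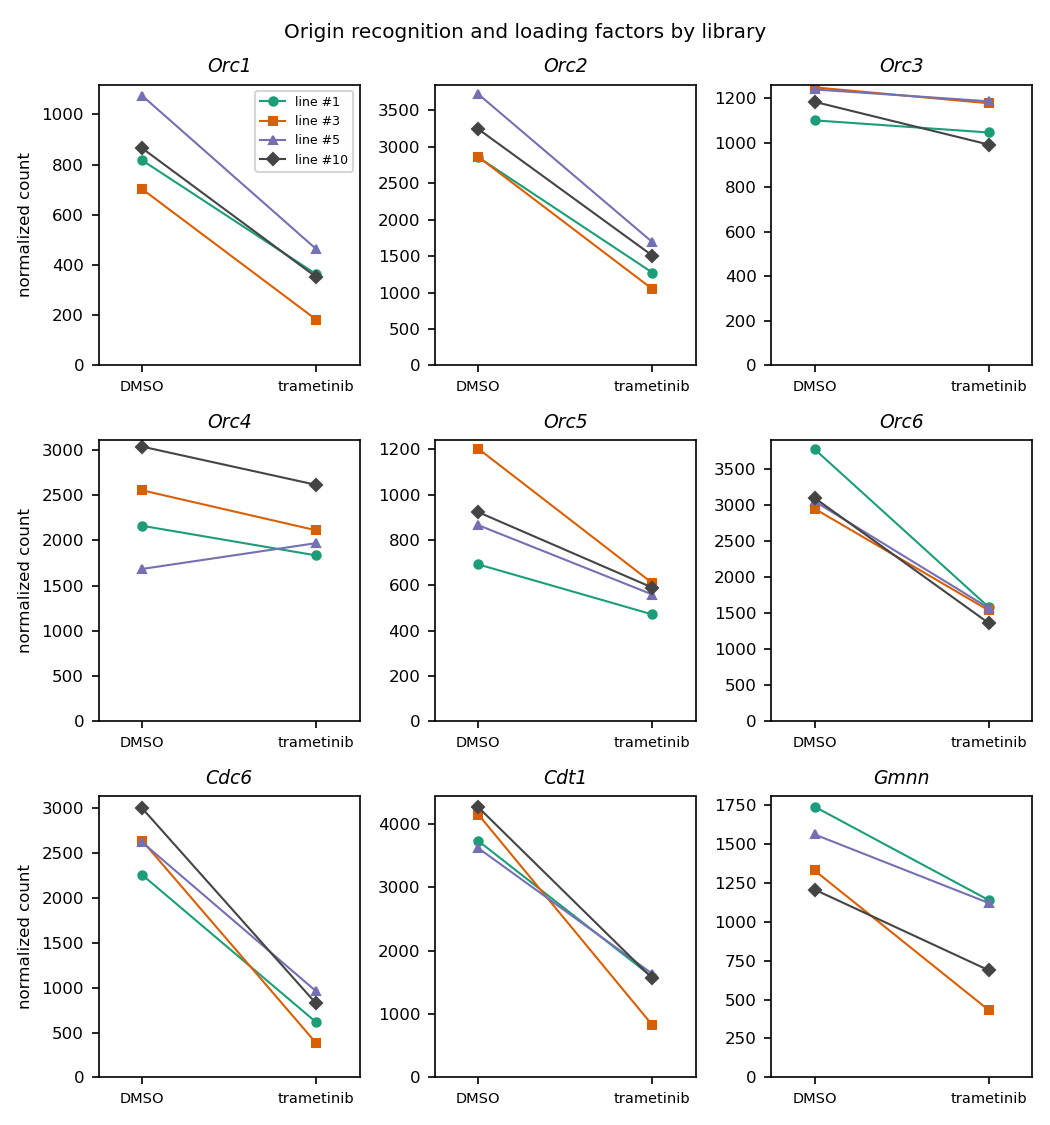
Normalized counts (y axis, from 0, a scale per gene) of the 6 ORC subunits, Cdc6, Cdt1 and Gmnn in the DMSO and MEKi library of each line, joined by line. Orc3 and Orc4, which did not pass the test, have overlapping groups, Orc4 of line #5 goes from 1683 to 1968, and the other 7 genes go down in every line.

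All 6 subunits of the Mcm2 to Mcm7 ring fell, with log2 fold changes of -1.85 for Mcm5, -1.72 for Mcm3, -1.53 for Mcm4, -1.32 for Mcm2, -1.09 for Mcm6 and -1.05 for Mcm7. Per kilobase of the longest coding transcript, levels of the ring subunits in DMSO lay within a ratio of 1.87, 2.02, 1.93 and 1.71 (highest to lowest) in lines #1, #3, #5 and #10. With MEKi the ratio was wider in every line, at 2.14, 4.57, 2.63 and 2.34. In MEKi libraries Mcm7 was the highest and Mcm5 the lowest subunit of every line, for example 1439 and 315 normalized counts per kilobase in line #3. In DMSO the order varied, with Mcm7 or Mcm3 highest and Mcm6 or Mcm4 lowest. Mcm7 shares exon positions with Ap4m1 and Cops6 on the other strand. Mcm5 minus Mcm7 in log2 fold change was below 0 in every line, at -0.80 ± 0.53 (SD, n = 4 lines).

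**Figure D4:**
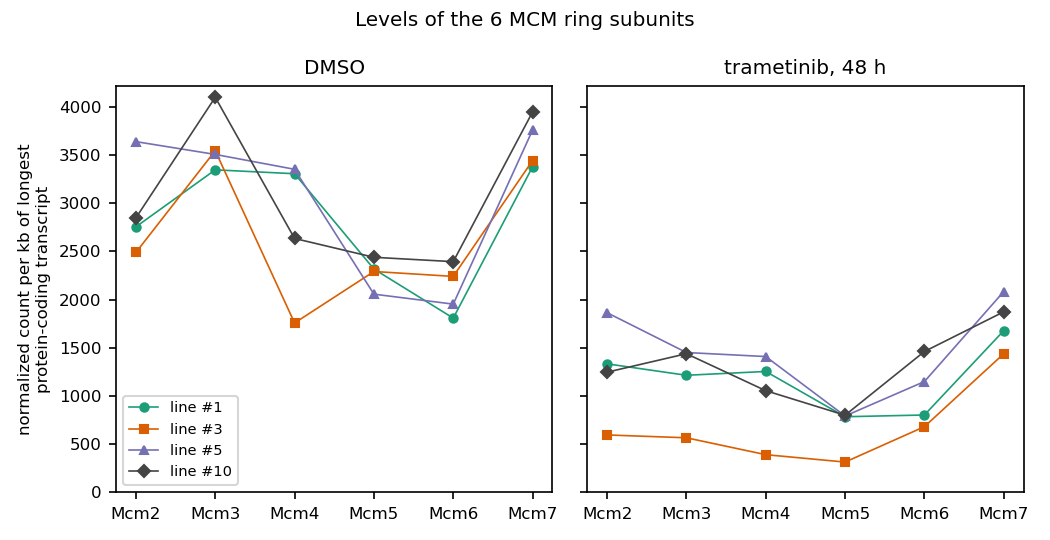
Normalized count per kilobase of the longest protein-coding transcript (y axis, from 0) for the 6 subunits of the MCM ring, DMSO on the left and MEKi on the right, a line per cell line. The subunits are all lower with MEKi, and Mcm5 is the lowest and Mcm7 the highest in each MEKi library.

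Of the genes of helicase activation, 8 of 8 were lower, with a median log2 fold change of -1.39. Mcm10 (chr2:4989714-5012791), which helps the helicase start to move, stood at 3010.3, 3370.2, 2751 and 4244 normalized counts in DMSO and 1059, 693, 1428 and 1468 in MEKi. The groups did not overlap, and the log2 fold change was -1.57 (SE 0.20, adjusted p = 0.00115, limma). Gins1 (chr2:150905400-150931280) belongs to the GINS complex, which completes the helicase. It stood at 756, 982, 855 and 1361 in DMSO and 327, 168, 396 and 535 in MEKi, and its log2 fold change was -1.55 (SE 0.24, adjusted p = 0.00237, limma). Line #3 had the lowest MEKi value of Gins1 although its DMSO value was second to that of line #10. Gins4 (chr8:23226616-23237659) changed least in this group, from 1711, 1617, 1415 and 1897 to 1137, 904, 883 and 1109, and still did not overlap between treatments (log2 fold change -0.72, SE 0.091, adjusted p = 0.00113, limma). The other GINS subunits lay between these, at -1.44 for Gins2 and -0.92 for Gins3. Cdc45, which binds GINS in the helicase, fell by 1.41 on the log2 scale.

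Cdc7, the kinase that fires origins, had a log2 fold change of -1.36, and Dbf4, its activating subunit, one of -0.88. Cdc7 had the widest spread between lines, with log2 fold changes of -1.26, -2.53, -0.36 and -1.30 in lines #1, #3, #5 and #10, and the highest adjusted p of the 49 genes (0.0100, limma). Cdc7 fell further than Dbf4 in lines #1, #3 and #10 (differences of -0.52, -1.18 and -0.47) and less in line #5 (0.23).

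Every one of the 9 polymerase genes was lower, with a median log2 fold change of -1.31. Pold2 (chr11:5872180-5878292), an accessory subunit of polymerase delta, stood at 2925, 4275, 3834 and 3842 normalized counts in DMSO and 1059, 600.4, 1119 and 1482 in MEKi. Its values in MEKi and DMSO did not overlap, and the log2 fold change was -1.86 (SE 0.24, adjusted p = 0.00116, limma). Pold1, the catalytic subunit of the same enzyme, had a log2 fold change of -1.28 and Pold3 one of -1.02. Pola1 (chrX:93304767-93632155), the catalytic subunit of polymerase alpha, stood at 2456, 1509, 1907 and 1588 in DMSO and 935, 309, 1129 and 649 in MEKi, where line #1 was highest in DMSO and line #3 lowest in MEKi. Its log2 fold change was -1.43 (SE 0.23, adjusted p = 0.00245, limma). Pola2, the other alpha subunit, fell by 1.08 on the log2 scale. Of the primase subunits, Prim1 (-1.37) fell further than Prim2 in all 4 lines, by a difference of -0.63 ± 0.21 (SD, n = 4 lines). Prim2 (chr1:33453810-33669795) stood at 1139, 1404, 1010.0 and 1526 in DMSO and 761, 599, 749.8 and 944 in MEKi, with no overlap (log2 fold change -0.73, SE 0.15, adjusted p = 0.00579, limma). Polymerase epsilon, which copies the leading strand, fell in its catalytic subunit Pole (-1.31) and in Pole2 (-1.38).

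Genes of the clamp, its loader and the lagging strand had a median log2 fold change of -1.06, and 12 of 12 were lower. Rpa2 (chr4:132768332-132778752), part of the complex that coats single strands, was the most even gene of the 51 in DMSO, at 1619, 1641, 1561 and 1467 normalized counts. With MEKi it stood at 618, 369, 604 and 596, and only line #3 was apart from the others. The log2 fold change was -1.55 (SE 0.16, adjusted p = 0.000622, limma). Its partners fell less, with Rpa1 at -1.07 and Rpa3 at -0.66. Rpa3 (chr6:8255936-8259173), the smallest change of the group, stood at 758, 802, 829.7 and 713 in DMSO and 487, 389, 657 and 467 in MEKi, where the highest MEKi value, in line #5, was just below the lowest DMSO value, in line #10. Its adjusted p was 0.00733 (SE 0.14, limma).

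Pcna (chr2:132249162-132253314), the sliding clamp, stood at 9587, 10339.7, 7801 and 12659 normalized counts in DMSO and 4210.2, 2167, 3564 and 5144 in MEKi, with a log2 fold change of -1.47 (SE 0.19, adjusted p = 0.00124, limma). Line #10 was highest in both treatments and line #3 lowest in MEKi. The table also lists Pcna-ps2, a near copy of Pcna, which was looked at after the values were seen. It held 884 normalized counts in DMSO and 453 in MEKi in line #5, and at most 4.78 in any library of the other lines, so reads of Pcna may be split in that line. The sum of both went from 8685 to 4016 in line #5, against 7801 to 3564 for Pcna alone. Rfc1 to Rfc5, which open the clamp and set it on DNA, had log2 fold changes of -0.76, -0.77, -0.98, -1.04 and -1.19. Pcna fell further than Rfc1, the large loader subunit, in every line (-0.71 ± 0.39, SD, n = 4 lines). Lig1, which seals Okazaki fragments, had a log2 fold change of -1.38, the flap nuclease Fen1 one of -1.12, and Rnaseh2a, which cuts RNA in DNA hybrids, one of -0.66.

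The genes of dNTP supply had the largest median log2 fold change of the 6 groups, -1.78, and 5 of 5 were lower. Tk1 (chr11:117815526-117826092), the cytosolic thymidine kinase of the salvage route, had the largest change of the 51. It stood at 5175, 6173, 6255 and 6457 normalized counts in DMSO and 1318, 779, 2308 and 1374 in MEKi. No library overlapped, line #5 kept most and line #3 least, and the log2 fold change of -2.16 (SE 0.23, adjusted p = 0.000654, limma) left 22.4% of the DMSO level. Dut (chr2:125247190-125258608), which clears dUTP and makes the precursor of dTMP, stood at 3995, 3381, 3544 and 3959 in DMSO and 1230.0, 531, 1101 and 1166 in MEKi. Its log2 fold change was -1.95 (SE 0.18, adjusted p = 0.000443, limma), with 3 lines between -1.69 and -1.76 and line #3 at -2.67. Tyms, the thymidylate synthase, fell by 1.63 on the log2 scale.

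Ribonucleotide reductase changed unevenly between its subunits. Rrm2, the small subunit that is made in S phase, stood at 17193, 13060.5, 22097 and 19536 normalized counts in DMSO and 5904, 1826, 8442 and 7671 in MEKi, and fell by 1.78 on the log2 scale. Rrm1 (chr7:102441695-102469771), the large subunit, stood at 11199, 7231, 10398 and 8309 in DMSO and 6813, 3225, 6323 and 5072 in MEKi, and its groups did not overlap (log2 fold change -0.83, SE 0.11, adjusted p = 0.00117, limma). Rrm2 fell further than Rrm1 in every line, with differences of -0.82, -1.67, -0.67 and -0.64 in lines #1, #3, #5 and #10. Rrm2b, the small subunit used outside S phase and a gene of the wider list, did not pass the test, at 0.20 (95% interval -0.072 to 0.46, adjusted p = 0.183, limma). Its normalized counts were 555, 509, 701 and 457 in DMSO and 689.5, 545, 717 and 579 in MEKi, higher with MEKi in each line. By the median over the lines, Rrm2 was the highest of the 51 genes per kilobase in both treatments. In line #3 it was not the highest. Pcna was above it in DMSO (6811 against 5956 normalized counts per kilobase). In MEKi, Mcm7 (1439), Pcna (1427) and Orc6 (1052) were above it (833).

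**Figure D5:**
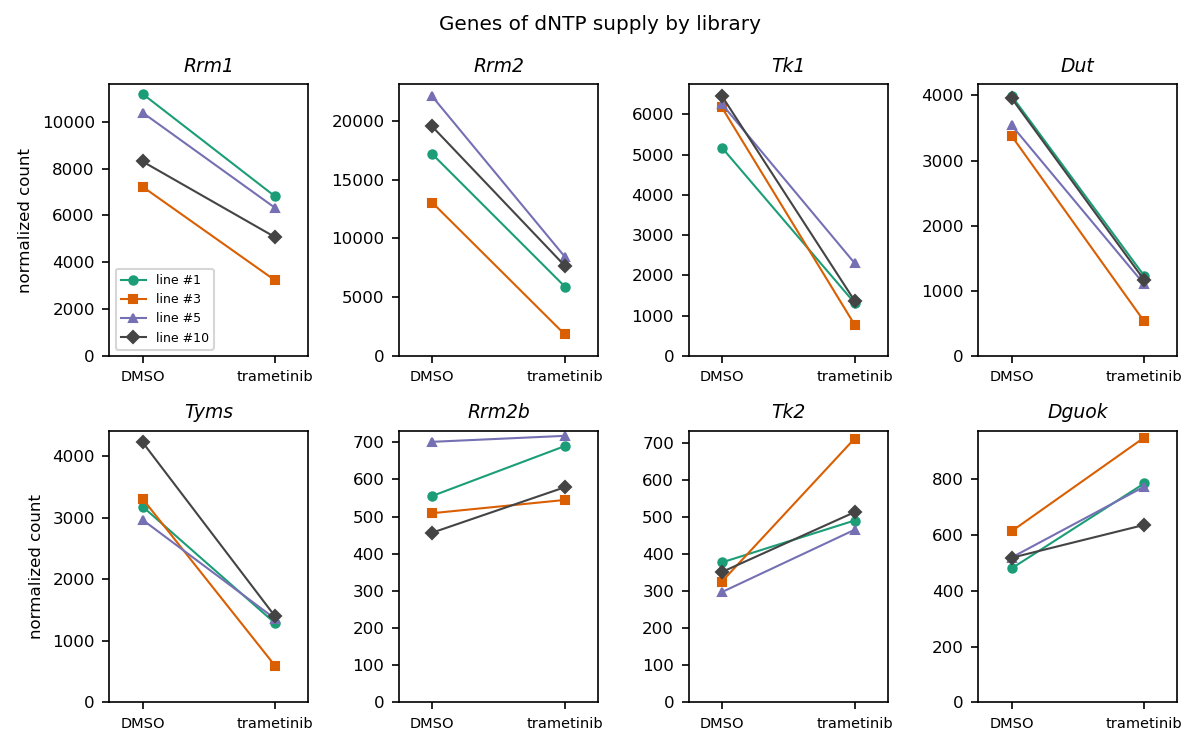
Normalized counts (y axis, from 0, a scale per gene) of 8 genes of dNTP supply in the DMSO and MEKi library of each line, joined by line. Rrm1, Rrm2, Tk1, Dut and Tyms go down in every line, Tk2 and Dguok go up in every line, and Rrm2b, which did not pass the test, has overlapping groups.

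The pair of genes of chromatin assembly factor 1, which places histones behind the fork, fell as well. Chaf1a (chr17:56040439-56072289) stood at 4076, 4969.7, 4206 and 5524 normalized counts in DMSO and 1879.6, 1223, 2266 and 2321 in MEKi (log2 fold change -1.32, SE 0.18, adjusted p = 0.00142, limma). Chaf1b (chr16:93883901-93906115) stood at 2354, 1821, 2459 and 2823 in DMSO and 1380.5, 616, 1362 and 1489 in MEKi (log2 fold change -1.03, SE 0.14, adjusted p = 0.00160, limma). Neither overlapped between treatments, and line #3 was lowest in MEKi for both.

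By the median per kilobase over the 4 lines, Rrm2 and Pcna ranked first and Orc1 and Gins3 last of the 51 genes in both treatments. Others changed rank. In DMSO the highest median levels over the 4 lines were those of Rrm2 (8374 normalized counts per kilobase), Pcna (6564), Tk1 (4315) and Mcm7 (3602), and the lowest those of Orc1 (279) and Gins3 (198). With MEKi, Tk1 went from rank 3 to rank 12, Pold2 from 9 to 21, Dut from 14 to 25 and Cdc6 from 40 to 47. Orc3 went the other way, from rank 42 to 29, and Orc4 from 39 to 28. Between untreated lines, the median spread of these genes was slightly below that of genes at like levels, which was not tested. The median SD of the log2 level over the 4 DMSO libraries was 0.19, against 0.24 for the 8938 genes tested in the same range of means. Rpa2 was the most even (SD 0.072) and Mcm4 the least (0.43), with 11867, 6309.9, 12032 and 9457 normalized counts in DMSO, lowest in line #3. Line #10 had the highest DMSO value for 28 of the 51 genes.

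The lines differed in the size of the fall. The median log2 fold change of the 51 genes was -1.12, -1.88, -0.85 and -1.21 in lines #1, #3, #5 and #10, while that of all genes tested was 0.05, 0.06, 0.03 and 0.04. Line #3 showed the lowest log2 fold change for 49 of the 51 genes (96.1%), against 67.5% of the 4026 other genes called lower. The exceptions were Orc3, lowest in line #10, and Orc6, lowest in line #1. Line #5 showed the smallest fall, or a rise, for 36 genes (70.6%), against 27.0% of the other genes called lower. The SD of log2 fold changes over all genes tested was likewise widest in line #3, at 1.40, against 1.12, 1.15 and 1.05 in lines #1, #5 and #10. The epithelial marker Krt8 also fell most in line #3, from 82577 to 27587 normalized counts. It went from 86732 to 70442, 132480 to 83195 and 81134 to 61232 in lines #1, #5 and #10. Cdh1 did not fall in line #3 (23663 to 24876). Whether the marker shift bears on the larger fall of line #3 was not tested. With 1 library per line and treatment the difference between lines could not be tested, and with each line left out in turn 49 of the 51 genes were still lower in limma. By role, line #3 had medians of -1.72 for licensing, -2.23 for helicase activation, -2.01 for polymerases, -1.48 for the clamp and lagging strand and -2.67 for dNTP supply. Line #5 had -0.96, -0.82, -0.83, -0.73 and -1.39 for the same roles. The log2 fold changes of the 51 genes were alike between lines, with Pearson's r of 0.78 to 0.92 for the 6 pairs of lines. Their order was alike too, with Spearman's rho of 0.74 to 0.89. Both are given as a description, since the genes share libraries and are not replicates.

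A wider list of 68 genes around replication, which leaves out the 51, held 47 lower genes, 3 higher genes and 18 that did not pass the test, with a median log2 fold change of -0.80. With libraries rescaled to equal totals the list held 41 lower and 7 higher genes. Of all genes tested 25.6% were lower and 27.3% higher, the shares against which the counts of this list and its groups stand. Factors of origin firing and of the fork, such as Ticrr (-1.42), which is needed to bring Cdc45 to origins, Clspn (-1.49) and Wdhd1 (-1.84), were lower in 11 of 11. Among further genes of dNTP supply, 7 of 12 were lower and 2 higher, and among chromatin factors that act with replication 7 of 8 were lower. Further polymerase and clamp loader subunits were lower in 6 of 8, and Okazaki fragment and topoisomerase genes in 5 of 6, with 1 higher. Genes of licensing control, with Mcm8 and Mcm9 counted among them, were lower in 5 of 8, with Dtl (-1.55) and Skp2 (-1.29), which mark licensing factors for degradation, the lowest. Of the genes of mitochondrial DNA replication 3 of 6 were lower, and of the translesion and repair polymerases 3 of 9 (33.3%, near the share of all genes tested), with medians of -0.24 and -0.09. Whether the shares differ between these groups was not tested.

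Shmt1 and Uhrf1 were among the 3 largest falls of the wider list. Shmt1, an enzyme of one-carbon supply, stood at 2122, 3408, 2624 and 2839.7 normalized counts in DMSO and 533, 649, 693 and 582 in MEKi, with all lines near each other in MEKi (log2 fold change -2.15, SE 0.11). Uhrf1, which brings maintenance methylation to new DNA, stood at 8418, 9955, 9928 and 9836 in DMSO and 2567, 1521, 4142 and 2989 in MEKi (-1.85, SE 0.22). Neither overlapped between treatments. Exons of Shmt1 and Top2b overlap Smcr8 and Rarb on the other strand.

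Of the 3 genes called higher, 2 are kinases that supply dNTPs to mitochondria and 1 is a topoisomerase. Tk2, the mitochondrial thymidine kinase, stood at 378, 326, 298 and 352 normalized counts in DMSO and 492, 713, 466 and 514 in MEKi (log2 fold change 0.67, SE 0.15, adjusted p = 0.00994, limma). Dguok, the mitochondrial deoxyguanosine kinase, stood at 480.4, 614, 519.6 and 519 in DMSO and 785, 949.9, 774 and 637 in MEKi (0.55, SE 0.11, adjusted p = 0.00686, limma). Top2b, the topoisomerase II that non-dividing cells also express, stood at 4198, 3352, 3493 and 2941 in DMSO and 5752, 4619.7, 4790.0 and 4280.0 in MEKi (0.48, SE 0.075, adjusted p = 0.00234, limma). Each was higher in 4 of 4 lines without overlap. The highest DMSO and lowest MEKi values lay close for Top2b (4198 and 4280.0) and Dguok (614 and 637). The share of all genes tested with such a gap upward was not counted, and 27.3% of them were called higher. Tk1 minus Tk2 in log2 fold change was -2.35, -4.11, -2.08 and -2.78 in lines #1, #3, #5 and #10. Top2a, the topoisomerase II of dividing cells, fell by 1.42 on the log2 scale, and Top2a minus Top2b was below 0 in each line, at -1.90 ± 0.63 (SD, n = 4 lines).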

How the data were processed

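RNA of 8 libraries, 4 PDAC cell lines with DMSO or trametinib (48 h), was prepared by the authors with a stranded mRNA kit and sequenced as paired reads. The authors deposited normalized counts, a signal per gene scaled between libraries. Per the labels, CASAVA 2.17, Salmon 0.12, DESeq2 1.18 and mm10 were used, with no roles given, and the counting of strand is not given in the sources used here. Of the values above 0 and under 20, 40.5% to 63.2% per library were whole multiples of the step of 1 read (tolerance 0.02), so whole reads were not recovered and no count test was run.

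Values were transformed to log2(value + 1), which understates changes of low genes, and tested with limma 3.58.1 (R 4.3.3, eBayes with trend, two-sided) on the 15888 of 34478 genes with a mean of at least 10, with Benjamini-Hochberg adjustment and a threshold of 0.05. The cell line was a block, since the labels name the same line in both treatments. Libraries of a line deviated together from their treatment means (r across genes 0.64, 0.65, 0.63 and 0.72 for lines #1, #3, #5 and #10). The fit was tested on simulated data, and no result of that test is given here. Python 3.11.15, numpy 2.4.6, pandas 2.3.3 and matplotlib 3.10.9 were used. Gene positions were looked up by symbol in GENCODE M21 (GRCm38), with lengths of the longest protein-coding transcript, and promoters are from RefSeq.

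The 51 genes, the wider list, the markers and the motifs were chosen with earlier results of these data known. Values in every library were given, by rule, for the 2 genes with the largest and the 1 with the smallest change in each role, and for the 3 largest rises and falls of the wider list, and other genes named in the text were chosen after their values were seen. The 15 alternatives were other pseudocounts, scalings, filters, variance models, no block, a minimum change of 2-fold (limma's treat) and each line left out. One allele of the mice and 1 gene of the wider list are not reported here.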

Additional observations from a re-analysis of the deposited data

Results flagged for a closer look

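In 153 groups of 4 values (DMSO normalized counts, MEKi normalized counts and log2 fold changes of the 51 genes), 20 held 1 value far from the other 3 by Dixon's test, where chance flags about 1 in 20, or 7.65 groups. Of these, 18 were in line #3. Its log2 fold changes stood apart for Orc1 (-1.94), Mcm4 (-2.17), Mcm5 (-2.86), Gins1 (-2.54), Pola2 (-1.69), Pcna (-2.25), Rpa1 (-1.77), Rpa2 (-2.15), Rrm1 (-1.16), Rrm2 (-2.84) and Dut (-2.67), all below the other lines. For Rrm1 the other 3 lines lay between -0.72 and -0.71, and for Dut between -1.76 and -1.69. MEKi normalized counts of line #3 were also lowest and apart for Cdt1 (827), Mcm5 (1065), Pola2 (1229), Rpa2 (369), Fen1 (1071), Tyms (593) and Chaf1b (616). The remaining values were the log2 fold change of Orc4 in line #5 (0.23), where the other lines lay between -0.27 and -0.22, and that of Orc3 in line #10 (-0.25), where they lay between -0.08 and -0.06. No DMSO value of the 51 genes stood apart in this way. These values come from single libraries, and the cause was not tested.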

How the results depend on the processing

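Under 12 of the 15 alternatives, 49 of the 51 genes were lower, and none was called higher under any. The count was 3 (Cdc6, Tk1 and Dut) when the test was against a minimum change of 2-fold, under which 1.11% of all genes tested were lower, 41 without a filter on low values, under which 7.80% of 34478 genes were lower and Gmnn, Gins1, Gins2, Cdc7, Pola1, Prim2, Rpa1 and Rpa3 missed the threshold (adjusted p 0.0502 to 0.118, with the same log2 fold changes), and 48 without the cell line as a block, where only Gmnn missed the threshold (adjusted p = 0.0607). The replicate block thus changed 1 call among the 51 genes, while over all genes its absence left 2347 lower (14.8%) and 2205 higher in place of 4075 (25.6%) and 4341. Of the wider list, the counts of lower and higher genes were 39 and 3 without the block. They were 3 and 0 with the 2-fold minimum, 39 and 2 without a filter, 41 and 7 with libraries rescaled to equal totals and 51 and 3 with each library centred on its median. Equal totals moved the median of all genes from 0.07 to 0.20, the split of all genes to 3285 lower and 5333 higher, and the log2 fold changes of Orc3 and Orc4 to 0.0084 and 0.0022. With each library centred on its median the split was 4492 lower and 3848 higher, and with quantile normalization 4233 and 3779. Leaving out each line in turn gave 49 lower genes of the 51 each time, and 42 to 47 lower and 3 to 4 higher genes of the wider list. The cause of the other shifts was not tested. Values are relative to each library's scaling, with 1 library per line and treatment, bulk RNA and a single time and dose per line.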
